A study of Homo sapiens with 15 samples.

Results

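Gene expression in HepG2 cells that had received medium-cloaked mRNA was compared with that in untransfected HepG2 cells, 3 libraries against 3 of the 15 in the series. The comparison was described across all expressed genes, which were the 18380 of 41412 rows of a raw count matrix with enough counts to be tested. HepG2 is an established human hepatocellular carcinoma line, used here with a wild-type genotype in every group. The medium-cloaked group was given 1 µg of mRNA encoding enhanced green fluorescent protein (eGFP) through the reagent NanoLNP, a lipid nanoparticle carrier, and that mRNA had been treated beforehand with 0.5 M of a reagent named CR-3 for 1 h at 30 °C. The same dose of eGFP mRNA was delivered in the same carrier to 3 further groups of 3 libraries, namely non-cloaked mRNA, weak-cloaked mRNA (CR-3 at 0.1 M for 0.5 h and 25 °C) and strong-cloaked mRNA (CR-3 at 1 M for 2 h and 37 °C). All cells were lysed 48 h after transfection. Particles without mRNA were given to no group, so the parts played by carrier, mRNA and encoded protein cannot be told apart. What CR-3 is chemically is not given in the sources used here, and no row for eGFP was analysed here. The comparison bears on the aim that the series states, which is to measure how cloaking affects expression across the transcriptome.

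Lipid nanoparticles reach liver cells largely by endocytosis, and a part of the mRNA they carry then leaves the endosome for the cytosol. Foreign RNA can be detected in endosomes by Toll-like receptors and in the cytosol by RIG-I and MDA5, which signal through MAVS to induce interferons and, through them, interferon-stimulated genes. Hepatocyte identity is held by a network of liver transcription factors, with HNF4A at its centre, that drives secreted plasma proteins and the enzymes of glucose, lipid and drug metabolism.

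The 6 libraries compared held 71558811 to 76549927 counts each, within a range of 57128519 to 78548789 over all 15. On the first principal component (21.1% of the variance) the untransfected libraries lay between -70.55 and -68.58 and the medium-cloaked libraries at 16.96, 27.82 and 26.44. Weak-cloaked replicate 1 lay at -51.63, apart from its group; it is in neither of the groups compared and entered the fit through the filter on low counts, the scaling and the shared estimate of spread. Secreted products that define hepatocyte-like cells were abundant in both groups: ALB (albumin) had 5395, 5723 and 6439 CPM (counts scaled to library size, with TMM normalisation) in the untransfected libraries and 6707, 6122 and 6915 in the medium-cloaked ones. AFP, the fetal liver product alpha-fetoprotein, had 252, 274 and 254 CPM and 275, 259.9 and 284 CPM. The libraries of both groups overlapped for both transcripts, and neither passed the test (log2 fold change 0.17 ± 0.13 (SE), adjusted p = 0.43, and 0.07 ± 0.11, adjusted p = 0.71), with signs that turned under total-count scaling. Replicates were biological according to the labels, and their pairs differed by far more than sampling noise.

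In all, 2524 genes (13.7% of those tested) differed between medium-cloaked and untransfected cells at a Benjamini-Hochberg adjusted p below 0.05 in edgeR's quasi-likelihood test, and only these are called higher or lower, or said to have risen or fallen, below. Of these, 1148 were higher (6.25% of the genes tested) and 1376 lower (7.49%) in medium-cloaked cells. These 2 shares are the background for every count of called list members below. Changes of at least 2-fold were found in 1045 of the called genes, of which 324 were higher and 721 lower. The 3 libraries of the medium-cloaked group did not overlap with the 3 untransfected libraries in 2507 of the called genes, against 41.5% of all tested genes. Over all 18380 genes the median log2 fold change was -0.04, and every change below is relative to the bulk of tested genes: with total-count scaling the median moved to -0.27 and the split became 555 higher and 2481 lower. The number of calls was 785 without medium-cloaked replicate 2, 819 without medium-cloaked replicate 3, 1249 without medium-cloaked replicate 1, 1034 without untransfected replicate 1 and 1140 without untransfected replicate 2, and it was 3789 without weak-cloaked replicate 1. A total of 610 genes (326 higher, 284 lower) stayed called in the same direction whichever of the 6 libraries was left out, and 591 did so under all 17 alternatives. Because these are bulk samples, fewer cells of a kind and less RNA per cell cannot be told apart.

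**Figure D1:**
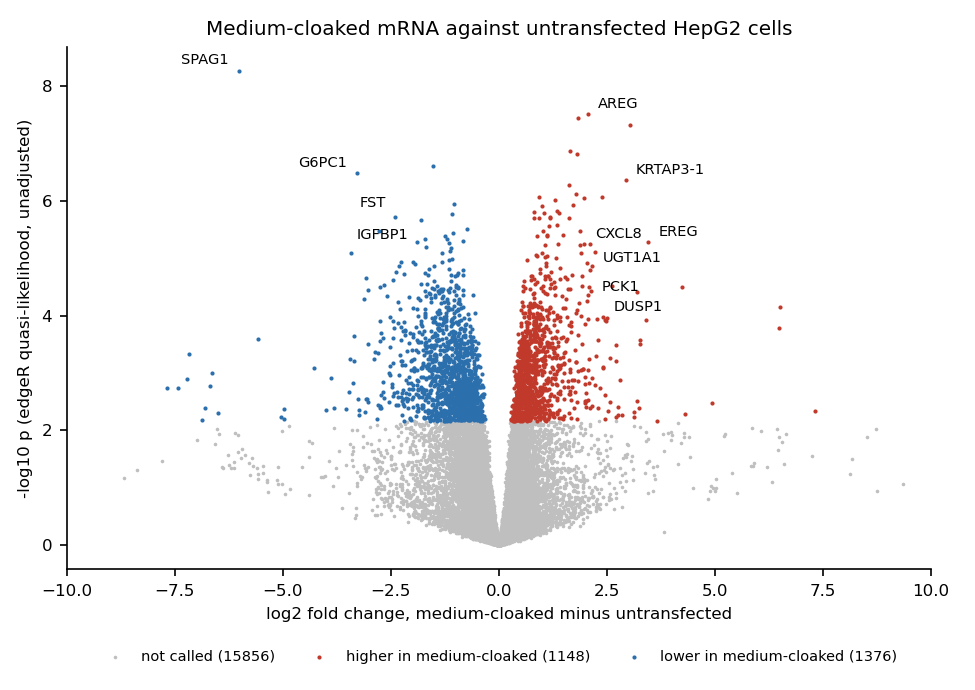
Each point is 1 of the 18380 tested genes, with the log2 fold change of medium-cloaked against untransfected cells on the x axis and the unadjusted -log10 p of edgeR's quasi-likelihood test on the y axis. Red points are the 1148 genes called higher, blue points the 1376 called lower, and SPAG1, G6PC1, FST and IGFBP1 lie apart on the lower side.

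Genes of hepatic glucose output changed strongly and in both directions. G6PC1 encodes the catalytic subunit of glucose-6-phosphatase, the last step of gluconeogenesis (ENSG00000131482, chr17:42900797-42913369, positions on GRCh38 here and below). Its level was 39.5, 42.5 and 46.5 CPM in the untransfected libraries and 5.01, 3.64 and 4.65 CPM in the medium-cloaked libraries. Every medium-cloaked library was thus far below every untransfected one, and the log2 fold change was -3.27 ± 0.36 (SE; adjusted p = 0.00076). PCK1, which encodes the cytosolic enzyme phosphoenolpyruvate carboxykinase of an earlier step of the same pathway (chr20:57561080-57568112), went the other way. It had 7.04, 10.2 and 11.4 CPM without transfection and 39.2, 36.2 and 46.5 CPM with medium-cloaked mRNA (log2 fold change 2.09 ± 0.34, adjusted p = 0.0044). IGFBP1, a secreted binding protein for insulin-like growth factors whose gene insulin represses (chr7:45888357-45893668), fell from 1221, 1485 and 1118 CPM to 361, 370.5 and 369 CPM. The 3 medium-cloaked libraries were close together, and the log2 fold change was -1.80 ± 0.23 (adjusted p = 0.0013). SIK1, a salt-inducible kinase that restrains cAMP-driven transcription, rose from 28.4, 31.2 and 29.7 to 78.4, 89.9 and 81 CPM (log2 fold change 1.48 ± 0.20, adjusted p = 0.0018). PPARGC1A, a coactivator of gluconeogenic and mitochondrial genes, fell from 10.5, 10.9 and 17.6 to 5.75, 5.85 and 6.56 CPM (adjusted p = 0.023), a call lost with 1 of untransfected replicate 3 or medium-cloaked replicates 1, 2 and 3 left out (adjusted p up to 0.086). Of the 25 tested genes on the list for gluconeogenesis and glucose control, 5 rose and 4 fell, with a median log2 fold change of -0.09 that turned to 0.13 with offsets for transcript length and GC content. Among glycolysis and hypoxia genes 5 of 30 rose and none fell, with 1 to 7 higher over the alternatives. They were CA9, a hypoxia-induced carbonic anhydrase (log2 fold change 1.01 ± 0.23), the aldolases ALDOC (0.67 ± 0.14) and ALDOA (0.81 ± 0.23), GAPDH (0.58 ± 0.15) and the phosphofructokinase gene PFKM. With 1 library left out at a time, the call was lost for CA9 (with each of 2 libraries, adjusted p up to 0.055 over the alternatives), ALDOA (5, up to 0.12) and GAPDH (5, up to 0.077).

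**Figure D2:**
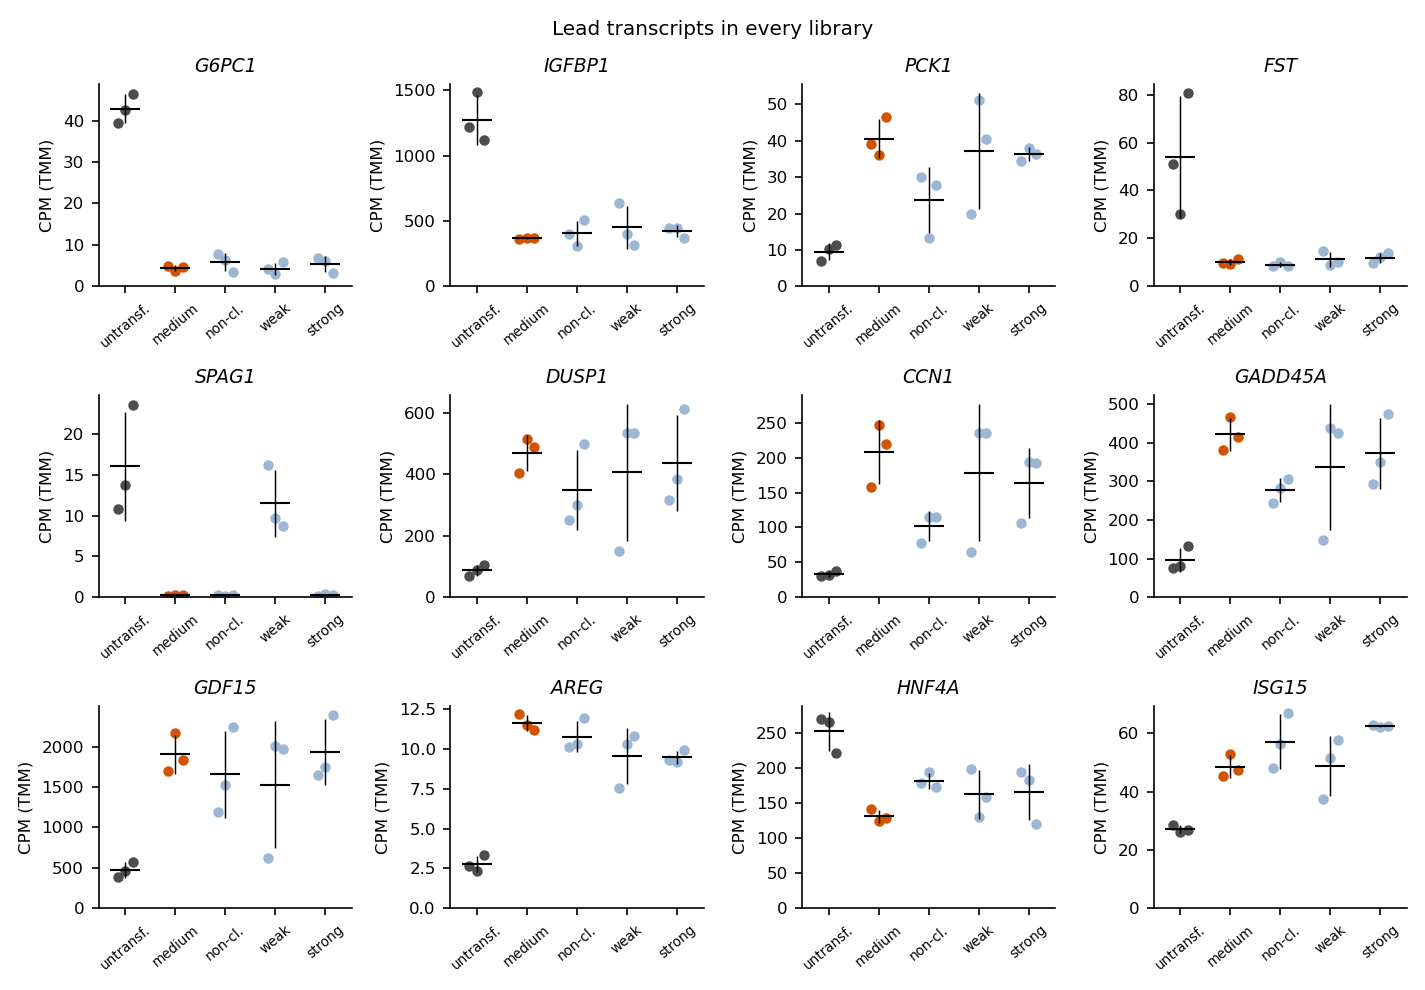
Normalised CPM of 12 transcripts in every library of the series. Points are libraries, horizontal lines the group means and vertical lines ± 1 SD (n = 3); orange marks medium-cloaked and dark grey untransfected cells. For each of the 12 transcripts the 3 medium-cloaked points lie entirely on 1 side of the 3 untransfected points, and SPAG1 is near 0 in medium-cloaked, non-cloaked and strong-cloaked but not in weak-cloaked cells.

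Several liver transcription factors were lower in medium-cloaked cells, whereas few secreted liver products passed the test. Of 22 tested liver transcription factors 8 fell and none rose (median log2 fold change -0.40, against -0.04 over all tested genes), with 3 to 10 lower over the alternatives. HNF4A, the nuclear receptor at the centre of the network (chr20:44355700-44434596), had 271, 267 and 221 CPM in untransfected and 142, 124 and 128 CPM in medium-cloaked libraries. The groups did not overlap, and the log2 fold change was -0.94 ± 0.18 (adjusted p = 0.0076). ONECUT1, which encodes the homeodomain factor HNF6, was low throughout and fell from 2.86, 4.4 and 4.88 to 0.444, 1.09 and 1.4 CPM (log2 fold change -2.05 ± 0.41, adjusted p = 0.0089). CEBPA, a leucine-zipper factor that maintains hepatocyte differentiation, fell from 88.9, 55.4 and 46.1 to 27.8, 26.5 and 26.9 CPM, and its call was lost with 1 of untransfected replicate 1 or medium-cloaked replicates 1, 2 and 3 left out (adjusted p up to 0.091). The nuclear receptor gene NR5A2, GATA6, CEBPD and FOXA2 were also among the factors that fell. Among secreted products, by contrast, only APOM and RBP4 of 30 tested genes passed the test (3.33% each way, against 6.25% higher and 7.49% lower over all tested genes). Yet the libraries of the groups did not overlap for 12 secreted products on the higher and 7 on the lower side. For the 22 transcription factors these counts were 1 and 12. Over all tested genes 41.5% did not overlap in either direction. APOM, an apolipoprotein of high-density lipoprotein that carries sphingosine-1-phosphate, had a log2 fold change of -0.91 ± 0.18 (adjusted p = 0.0089), and RBP4, the plasma carrier of retinol, one of 0.57 ± 0.16 (adjusted p = 0.031). The call for RBP4 was lost with total-count scaling, with 1 of untransfected replicates 1 and 2 or medium-cloaked replicates 1, 2 and 3 left out (adjusted p up to 0.11). The list's median was 0.17 and turned to -0.06 under total-count scaling. Summed over the list, secreted products made up 25800 to 28360 CPM in the untransfected and 30000 to 31650 CPM in the medium-cloaked libraries.

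**Figure D3:**
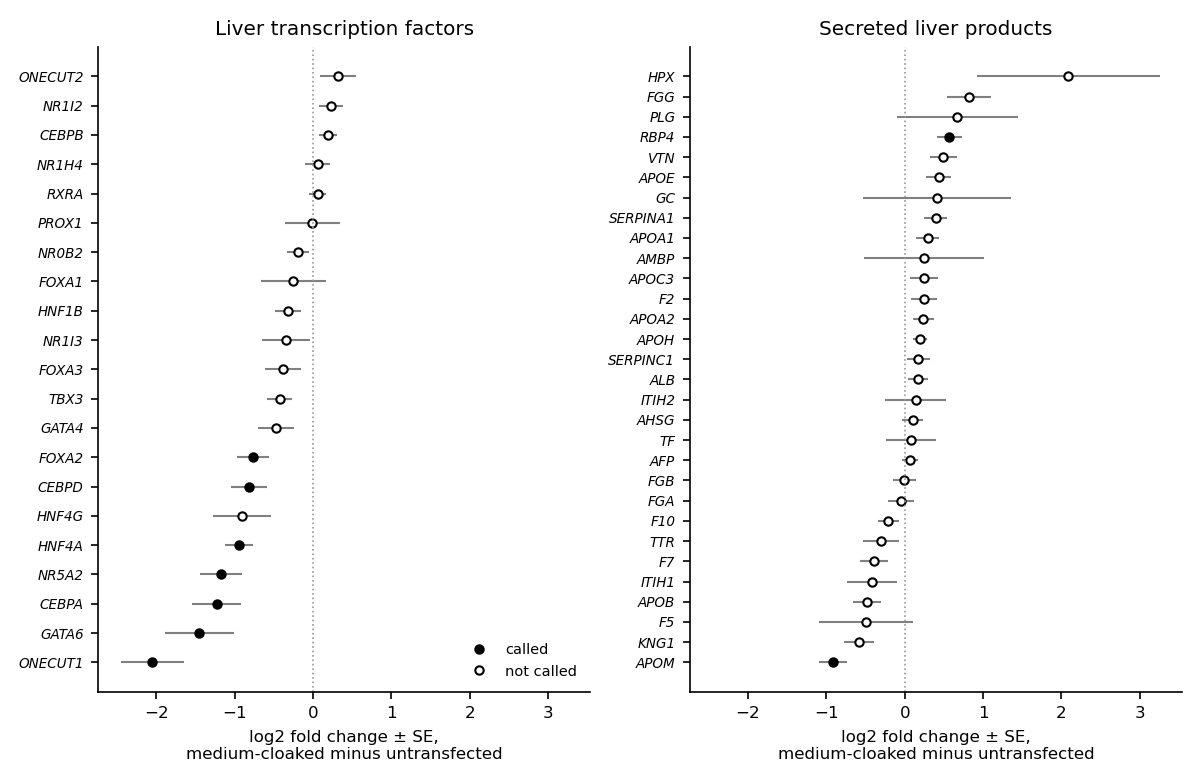
Log2 fold change of medium-cloaked against untransfected cells for tested members of the lists of liver transcription factors (left) and secreted liver products (right). Horizontal lines are ± 1 SE and filled points are genes called at an adjusted p below 0.05. The called transcription factors drawn all lie below 0, while 2 secreted products are called, 1 on each side.

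Of 23 acute-phase genes 2 rose and 2 fell (8.7% each way), shares near those of all genes tested (6.25% higher and 7.49% lower): SERPINA3, a protease inhibitor (log2 fold change 0.84 ± 0.22), and LBP, the lipopolysaccharide-binding protein, at under 1 CPM in both groups (1.61 ± 0.48), were higher, and HAMP, the iron hormone hepcidin (-0.93 ± 0.24), and complement C5 (-0.66 ± 0.18) were lower. None of these 4 calls held under every alternative. Among 25 tested genes of drug and bile handling 5 rose and 5 fell (20% each way). UGT1A1, which glucuronidates bilirubin, had 150, 111 and 202 CPM in untransfected and 672, 873 and 461 CPM in medium-cloaked libraries (log2 fold change 2.12 ± 0.32, adjusted p = 0.0035). The UGT1A genes share their downstream exons, so the division of reads between UGT1A1, UGT1A3 and UGT1A6, all called higher, is uncertain. The sterol exporter gene ABCG8 (-1.57 ± 0.41) and CYP3A5 (-1.12 ± 0.33) were lower, and CYP1A2 (1.25 ± 0.38) was higher at a low level. CYP3A4, CYP7A1 and SLC10A1, which mark mature hepatocytes, were among the 8 listed genes with too few counts to be tested. Leaving out single libraries ended the call for SERPINA3 (with each of 4 libraries, adjusted p up to 0.092 over the alternatives), LBP (6, up to 0.13), HAMP (4, up to 0.094), C5 (4, up to 0.1), ABCG8 (4, up to 0.1), CYP3A5 (6, up to 0.12) and CYP1A2 (5, up to 0.2).

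A number of feedback inhibitors and ligands of the MAP kinase pathway, immediate early genes and growth-arrest genes were higher. Of 22 tested genes of MAP kinase feedback and epidermal growth factor (EGF)-family ligands, 9 rose and none fell (median 0.73, 8 to 11 higher over the alternatives). AREG, the EGF receptor ligand amphiregulin (chr4:74445134-74455009), rose from 2.65, 2.35 and 3.35 CPM to 12.2, 11.5 and 11.2 CPM (log2 fold change 2.06 ± 0.18, adjusted p = 0.00022). Its neighbour EREG, which encodes the related ligand epiregulin (chr4:74365143-74388751), had 0.28, 0.0686 and 0.198 CPM without transfection and 1.6, 2.72 and 1.73 CPM with medium-cloaked mRNA (3.46 ± 0.48, adjusted p = 0.002). Both ligands were low in untransfected cells, and no medium-cloaked library came down to their level. DUSP1, a phosphatase that inactivates MAP kinases (chr5:172768090-172771195), had 70.5, 88.2 and 105 CPM against 404, 516 and 489 CPM (log2 fold change 2.42 ± 0.44, adjusted p = 0.0069). The related phosphatase genes DUSP16 (1.54 ± 0.28), DUSP10 and DUSP5 were higher too.

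Immediate early genes are induced within minutes of a growth or stress signal without new protein synthesis. Of 26 tested, 10 rose and none fell (median 0.87), with 6 to 16 higher over the alternatives. CCN1, a secreted matricellular protein (chr1:85580761-85583962), rose from 30.5, 32.1 and 38.2 to 157, 247 and 219.9 CPM (log2 fold change 2.63 ± 0.42, adjusted p = 0.0044). The zinc-finger factor gene KLF6 rose from 48.4, 60.9 and 83.8 to 234, 275 and 287 CPM (2.04 ± 0.35), and ATF3, a stress-induced member of the ATF family, from 17.9, 29.6 and 34.4 to 87.8, 101 and 117 CPM (1.90 ± 0.35). All 3 groups of values were without overlap. EGR1, an early growth response factor, had 7.01, 5.78 and 9.4 CPM and 18.9, 34.8 and 26.2 CPM, also without overlap, but with a log2 fold change of 1.85 ± 0.71 it did not pass (adjusted p = 0.11). Under 4 of the 17 alternatives EGR1 was called higher. FOSB, a subunit of AP-1, was called at 2.06 ± 0.57, and lost its call with 1 of untransfected replicates 1 and 2 or medium-cloaked replicates 1, 2 and 3 left out (adjusted p up to 0.1).

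Genes of growth arrest and the response to DNA damage included 6 of 25 that rose and 2 that fell (median 0.54, 5 to 12 higher over the alternatives). These shares were 24% and 8%, against 6.25% and 7.49% of all tested genes. GADD45A, a growth-arrest and DNA-damage-inducible gene (chr1:67685061-67688338), had 76.9, 81.2 and 132 CPM in untransfected and 382, 467 and 415 CPM in medium-cloaked libraries (log2 fold change 2.13 ± 0.35, adjusted p = 0.0044). The polo-like kinase gene PLK2 rose from 15.3, 16.6 and 21 to 70.1, 83.2 and 83.8 CPM and PLK3 from 12.4, 22.6 and 29.3 to 94.8, 151 and 119.7 CPM. CDKN1A, which encodes the cyclin-dependent kinase inhibitor p21, rose from 176, 201 and 221 to 464, 421 and 559.6 CPM (log2 fold change 1.27 ± 0.21, adjusted p = 0.0044). For each of these kinase and inhibitor genes the lowest medium-cloaked library was above the highest untransfected one. XPC, a DNA-damage sensor, was among those that fell.

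Among stress responses, the genes of the integrated stress response that rose did so by more than 2-fold. Of 25 tested targets of ATF4, the factor translated when eIF2 is phosphorylated, 3 rose (12%, against 6.25% of all tested genes) and none fell. The median of 0.15 turned to -0.09 with total-count scaling. GDF15, a secreted stress hormone (chr19:18374731-18389176), had 390.1, 456 and 575 CPM in untransfected and 1693, 2174 and 1840 CPM in medium-cloaked libraries (log2 fold change 2.01 ± 0.38, adjusted p = 0.0076). DDIT3, the factor CHOP, rose from 16.3, 16.3 and 12.3 to 33.1, 43.3 and 40.3 CPM (1.38 ± 0.29). PPP1R15A, the phosphatase subunit GADD34 that reverses eIF2 phosphorylation, rose from 47.4, 57.7 and 43.6 to 161, 214 and 202 CPM, and lost its call with 1 of untransfected replicate 1 or medium-cloaked replicates 2 and 3 left out (adjusted p up to 0.06). None of the 3 groups of values overlapped. Of 25 genes that answer unfolded proteins 7 rose and 1 fell, with 2 to 11 higher over the alternatives. HSPA5, the main chaperone of the endoplasmic reticulum, rose from 1240, 1197 and 1126 to 2084, 2481 and 2417 CPM (log2 fold change 0.97 ± 0.20, adjusted p = 0.01), whereas XBP1, a transcription factor of this response, was lower (-1.08 ± 0.29). Of 22 heat-shock genes 4 rose, among them DNAJB1, a co-chaperone of HSP70 (1.99 ± 0.55), but the count ran from 0 to 7 over the alternatives. NRF2 targets, which handle oxidants and iron, rose in 7 of 30 cases and fell in 1 (4 to 12 higher over the alternatives). FTL, the ferritin light chain, rose from 5834, 4738 and 5711 to 10160, 11690 and 10870 CPM (log2 fold change 1.01 ± 0.18, adjusted p = 0.006), and TXN, thioredoxin, had a log2 fold change of 0.56 ± 0.09. HMOX1, haem oxygenase and the best-known NRF2 target, was the gene that fell, from 47.3, 40.8 and 30.4 to 27.6, 27.2 and 29.6 CPM (adjusted p = 0.048), and its call was lost with RLE size factors, with no filter, with only the groups compared, with 1 of untransfected replicates 1 and 2 or medium-cloaked replicates 1, 2 and 3 left out (adjusted p up to 0.19). Calls that did not survive the removal of single libraries were those for XBP1 (with each of 5 libraries, adjusted p up to 0.11 over the alternatives) and DNAJB1 (6, up to 0.11).

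Metallothioneins, small cysteine-rich proteins that bind zinc and copper, were in several cases higher in medium-cloaked cells. They are induced through metal response elements, which the zinc-sensing factor MTF1 binds. Because MT1X and MT2A rose together, the 250 bases before their RefSeq start sites (GRCh38.p14) are shown, 5′ to 3′ on the plus strand at chr16:56682220-56682469 and chr16:56608334-56608583. Capitals mark matches on either strand to TGCACNC or TGCGCNC, the core of the metal response element, and no matches overlap in these stretches.
MT1X: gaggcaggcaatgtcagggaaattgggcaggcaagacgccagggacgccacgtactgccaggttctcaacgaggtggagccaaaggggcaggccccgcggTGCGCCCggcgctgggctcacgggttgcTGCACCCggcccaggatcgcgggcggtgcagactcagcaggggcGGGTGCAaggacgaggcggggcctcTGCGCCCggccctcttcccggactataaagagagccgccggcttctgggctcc
MT2A: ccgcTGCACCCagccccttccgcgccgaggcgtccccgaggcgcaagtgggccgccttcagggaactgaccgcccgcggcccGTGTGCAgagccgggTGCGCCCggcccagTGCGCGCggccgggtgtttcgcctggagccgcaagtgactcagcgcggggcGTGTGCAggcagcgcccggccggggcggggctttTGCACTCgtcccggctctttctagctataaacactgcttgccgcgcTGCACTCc
The stretch before MT1X held 4 matches and that before MT2A held 7. In promoters of 300 bases (250 before to 50 after the start), the same core was found in 7 of 9 listed metal-response genes with a RefSeq promoter (77.8%), against 10377 of 35116 promoters in all (29.6%). For 2 other motifs searched in the same way on either strand, TGATGNAA, the core of the composite element of ATF4, was in 4 of 21 listed ATF4 targets (19%, against 3.62% of all promoters) but in 0 of the 3 called higher. TGACGTCA, the cAMP response element, was in 1 of 20 listed immediate early genes (5%, against 1.85%) and in 1 of the 9 called higher. A match describes letters only and shows no binding. MT1X had 25.9, 27.6 and 18.2 CPM in untransfected and 60.4, 57.3 and 61.1 CPM in medium-cloaked libraries (log2 fold change 1.32 ± 0.19, adjusted p = 0.0028). MT2A had 98.2, 120.3 and 80.3 CPM against 194, 225 and 201 CPM (1.05 ± 0.21, adjusted p = 0.0088). MT1A, a low transcript, had 0.863, 1.98 and 1.34 CPM against 5.37, 5.88 and 5.92 CPM (2.04 ± 0.31). In each of the 3 the medium-cloaked libraries stood clear above the untransfected ones, but the metallothioneins are near-identical copies whose reads may be divided between them. Of 13 tested metal-response genes 6 rose and 1, the manganese exporter gene SLC30A10 (-1.81 ± 0.46), fell. The removal of 1 of the 6 libraries ended the call for SLC30A10 (with each of 4 libraries, adjusted p up to 0.09 over the alternatives).

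Cholesterol synthesis and uptake genes, the targets of the sterol-sensing factor SREBF2, rose in 10 of 26 cases and fell in none (median 0.43), with 6 to 13 higher over the alternatives. MSMO1, a sterol demethylation enzyme, showed the largest change on the list, from 97.2, 91.6 and 127 to 388, 402 and 406 CPM (1.92 ± 0.31, adjusted p = 0.0044). The 3 medium-cloaked libraries were above all untransfected ones for this gene. HMGCS1, which makes the precursor of mevalonate, varied among untransfected libraries (20.4, 71 and 145 CPM), overlapped with the medium-cloaked ones (119.5, 123 and 88.7 CPM) and did not pass (log2 fold change 0.49 ± 0.71, adjusted p = 0.7). Fatty acid synthesis showed 2 of 22 genes higher (9.09%, against 6.25% of all tested genes). They were the acyltransferase gene AGPAT2 (0.89 ± 0.14) and the desaturase gene SCD (0.57 ± 0.10). The list's median was 0.03 and turned to -0.19 under total-count scaling. Targets of PPARA and fat oxidation were divided, with 3 of 21 higher and 3 lower. These shares were 14.3% each way, against 6.25% higher and 7.49% lower over all tested genes.

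In the compartments through which nanoparticles travel, 8 of 31 genes of uptake and endosomal sorting rose and 3 fell, with 1 to 9 higher over the alternatives. These shares were 25.8% and 9.68%, against 6.25% and 7.49% of all tested genes. Those that fell were VPS4B (-1.43 ± 0.34), VPS4A (-0.46 ± 0.13) and TSG101 (-0.78 ± 0.18), which encode parts of the ESCRT machinery that sorts and repairs endosomal membranes. VPS4B went from 26, 25.4 and 28.9 to 11.4, 9.61 and 8.75 CPM, and its call was lost with 1 of medium-cloaked replicates 2 and 3 left out (adjusted p up to 0.071). TSG101 went from 97.7, 95.7 and 104 to 59.5, 50.9 and 63.2 CPM, and its call was lost without medium-cloaked replicate 2 (adjusted p up to 0.077). Among those that rose, LGALS3, a galectin that marks damaged endosomes, had a log2 fold change of 0.65 ± 0.19 (adjusted p = 0.039). Among 35 lysosome and autophagy genes 7 rose, including the protease gene CTSD (0.64 ± 0.17) and the sialidase gene NEU1 (0.67 ± 0.17), and TFEB, a master regulator of lysosomal genes, fell (-0.59 ± 0.16) while its relative TFE3 rose (0.87 ± 0.24). The count of higher lysosomal genes ran from 0 to 14 over the alternatives. With 1 library left out at a time, the call was lost for LGALS3 (with each of 5 libraries, adjusted p up to 0.16 over the alternatives), CTSD (5, up to 0.087), NEU1 (6, up to 0.079), TFEB (6, up to 0.12) and TFE3 (5, up to 0.12).

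The interferon genes IFNB1 and IFNL1 were not detectable beyond a few reads. IFNB1, interferon beta, had 4, 0 and 0 counts in untransfected and 0 in every medium-cloaked library, where a count of 0 allows up to 3 counts, or 0.0392 to 0.0419 CPM, by counting error alone. IFNL1, interferon lambda 1, had 0 counts in every untransfected library and 0, 4 and 0 counts in the medium-cloaked ones. Interferon-stimulated genes were divided: of 38 tested 5 rose (13.2%, against 6.25% of all tested genes) and 6 fell (15.8%, against 7.49%). Their median log2 fold change of -0.05 was -0.28 with total-count scaling and 0.06 with length and GC offsets. ISG15, a ubiquitin-like modifier (chr1:1001138-1014540), had 28.5, 26 and 26.8 CPM in untransfected and 45.3, 52.8 and 47.5 CPM in medium-cloaked libraries (log2 fold change 0.84 ± 0.16, adjusted p = 0.0069). MX1, an antiviral GTPase, moved the opposite way, from 3.83, 4.06 and 3.61 to 1.39, 1.05 and 1.09 CPM (-1.70 ± 0.35, adjusted p = 0.01). Neither gene's groups overlapped. IFI27 (0.71 ± 0.18) was higher and DTX3L, a ubiquitin ligase, lower (-0.95 ± 0.27). IFIT1, which binds RNA lacking cap methylation, had 2.77, 2.35 and 2.37 CPM and 1.9, 1.38 and 1.26 CPM and did not pass (-0.72 ± 0.32, adjusted p = 0.15). Under 1 of the 17 alternatives IFIT1 was called lower. Leaving out single libraries ended the call for IFI27 (with each of 5 libraries, adjusted p up to 0.09 over the alternatives) and DTX3L (6, up to 0.12).

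RNA sensors and their adaptors were lower in 5 of 23 tested cases and higher in 1 (median -0.41), with 0 to 10 lower over the alternatives. DHX58, which encodes LGP2, a regulator of the cytosolic sensors, was the one that rose, from 0.681, 1.34 and 0.825 to 2.6, 2.72 and 2.44 CPM (log2 fold change 1.44 ± 0.29, adjusted p = 0.0097). The sensors themselves did not pass. DDX58, which encodes RIG-I, had 2.5, 2.76 and 1.32 CPM in untransfected and 1.06, 0.793 and 1.06 CPM in medium-cloaked libraries (-1.18 ± 0.44, adjusted p = 0.089), and IFIH1, which encodes MDA5, had 5.01, 6.44 and 4.47 CPM against 3.74, 4.28 and 5.56 CPM (-0.23 ± 0.34, adjusted p = 0.7). EIF2AK2, the RNA-activated kinase PKR, had a log2 fold change of -0.41 ± 0.17 (adjusted p = 0.12). Of the 17 alternatives, 2 called DDX58 lower, 1 called EIF2AK2 lower and 0 called IFIH1. The kinase gene IKBKE (-1.45 ± 0.33), the RIG-I ubiquitin ligase gene TRIM25 (-0.88 ± 0.23), MYD88 (-0.83 ± 0.21), TRAF3 and MAVS were lower, and none of these 5 calls held under every alternative. Calls that did not survive the removal of single libraries were those for IKBKE (with each of 3 libraries, adjusted p up to 0.062 over the alternatives), TRIM25 (5, up to 0.09) and MYD88 (4, up to 0.089).

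Of 22 tested NF-kB targets and cytokines 4 rose (18.2%, against 6.25% of all tested genes) and 2 fell (9.09%, against 7.49%). CXCL8, the neutrophil chemokine interleukin-8, had 3.33, 4.03 and 3.33 CPM in untransfected and 13.7, 15.6 and 12.9 CPM in medium-cloaked libraries (log2 fold change 1.98 ± 0.28, adjusted p = 0.0021). TNFAIP3, the NF-kB inhibitor A20, rose from 31, 41 and 33.9 to 76.2, 76.3 and 89.4 CPM (1.19 ± 0.21, adjusted p = 0.0059). Both were higher in each medium-cloaked library than in any untransfected one. CXCL3, a related chemokine, was called lower from 28, 8 and 3 counts to 0 in every medium-cloaked library (adjusted p = 0.042), so no fold change is given; its call was lost with 1 of untransfected replicates 1 and 2 or medium-cloaked replicates 1, 2 and 3 left out (adjusted p up to 0.13). IL6, IL1A, IL1B, CCL5 and CXCL10 had too few counts to be tested. Of 19 antigen presentation genes 3 rose (15.8%), namely HLA-E (0.60 ± 0.17), PDIA3 (0.50 ± 0.12) and B2M (0.39 ± 0.11). The count ran from 0 to 6 over the alternatives. The removal of 1 of the 6 libraries ended the call for HLA-E (with each of 5 libraries, adjusted p up to 0.11 over the alternatives), PDIA3 (2, up to 0.058) and B2M (5, up to 0.21).

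Part of the DNA replication genes were lower, while genes of mitosis were divided. Of 34 tested replication genes 12 fell and 1 rose (median -0.38), with 4 to 21 lower over the alternatives. CHAF1A, the large subunit of the chromatin assembly factor that works at replication forks, fell from 70.7, 56.8 and 51.2 to 23.6, 22.5 and 28.2 CPM (log2 fold change -1.26 ± 0.24, adjusted p = 0.0074). PRIM1, a primase subunit, fell from 12.2, 25.9 and 23.1 to 5.25, 6.75 and 9.04 CPM, and its call was lost with 1 of untransfected replicate 2 or medium-cloaked replicates 1 and 2 left out (adjusted p up to 0.078). POLE2 (-1.23 ± 0.28) and POLA1 (-1.12 ± 0.27), subunits of replicative polymerases, were lower too, whereas RRM2, a subunit of ribonucleotide reductase, was the gene that rose. Among 30 mitosis genes 2 rose (6.67%, against 6.25% of all tested genes) and 4 fell (13.3%, against 7.49%), with a median of 0.00. MKI67, the proliferation marker Ki-67, fell from 155, 158 and 139.7 to 81.9, 64.1 and 69.5 CPM (-1.07 ± 0.33, adjusted p = 0.046), with the call lost with no filter, with 1 of untransfected replicates 1, 2 and 3 or medium-cloaked replicates 1, 2 and 3 left out (adjusted p up to 0.15). Of 23 genes of G1 control 3 rose (13%, against 6.25% of all tested genes) and 2 fell (8.7%, against 7.49%). CDKN1A, the inhibitor gene CDKN2D (1.22 ± 0.25) and the MYC antagonist gene MXD1 (1.65 ± 0.39) rose. RBL1 and E2F1 fell, and neither of these 2 calls held under every alternative. With 1 library left out at a time, the call was lost for POLE2 (with each of 4 libraries, adjusted p up to 0.064 over the alternatives), POLA1 (3, up to 0.086), MXD1 (4, up to 0.069) and RBL1 (5, up to 0.13).

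Histone genes rose in 5 of 15 tested cases and fell in none. Transcripts of replication-dependent histones mostly lack a poly(A) tail, so poly(A)-selected libraries catch only some of them. H2BC21, a gene of histone H2B, had 1.34, 2.29 and 1.79 CPM in untransfected and 6.22, 11.8 and 8.54 CPM in medium-cloaked libraries (log2 fold change 2.29 ± 0.47, adjusted p = 0.0099), without overlap. H2BC4 (1.31 ± 0.32) and H4C14 (1.14 ± 0.28) were higher too. Ribosomal protein genes rose in 16 of 37 cases and fell in none (median 0.41), with 2 to 35 higher over the alternatives and a median of 0.18 with total-count scaling. RPL7 had the smallest adjusted p, at 1439, 1565 and 1385 CPM against 2161, 2239 and 2291 CPM (log2 fold change 0.61 ± 0.10, adjusted p = 0.0044); these genes have many processed pseudogenes that can take reads. Mitochondrially encoded genes were lower in 4 of 13 cases. MT-ND3 (-0.66 ± 0.17), MT-CO3 (-0.44 ± 0.10) and MT-ATP8 (-0.40 ± 0.10) were 3 of them, and MT-ND4 was called through 1 library alone, with 9, 11 and 1151 counts in untransfected and 11, 10 and 10 in medium-cloaked libraries. Without untransfected replicate 3 its log2 fold change was 0.29 (adjusted p = 0.82). Leaving out single libraries ended the call for H2BC4 (with each of 4 libraries, adjusted p up to 0.089 over the alternatives), H4C14 (4, up to 0.084), MT-ND3 (5, up to 0.093), MT-CO3 (4, up to 0.073) and MT-ATP8 (5, up to 0.092).

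FST fell among the genes of activin and transforming growth factor signalling. It encodes follistatin, which binds and neutralises activins (chr5:53480409-53487134), and had 51.1, 30.1 and 80.6 CPM in untransfected and 9.64, 9.34 and 11.5 CPM in medium-cloaked libraries. The untransfected libraries were spread, the medium-cloaked ones were not, and the log2 fold change was -2.41 ± 0.30 (adjusted p = 0.0013). Among the genes of inhibin and activin subunits, INHBB rose from 4.12, 6.91 and 5.29 to 12.1, 11.4 and 12.6 CPM (log2 fold change 1.15 ± 0.21) and INHBE by 0.61 ± 0.13 (adjusted p = 0.012; 0.38 and 0.066 with total-count scaling), while INHA, INHBA and INHBC did not pass. Of 28 listed genes 4 rose and 4 fell, so the list as a whole had no single direction. These shares were 14.3% each way, against 6.25% higher and 7.49% lower over all tested genes. EDN1, the vasoconstrictor endothelin-1, was lower but differed more than 8-fold between medium-cloaked replicates (5.48, 0.396 and 5.2 CPM, against 29.5, 49.1 and 36.1 CPM without transfection), and its call was lost with 1 of untransfected replicate 2 or medium-cloaked replicates 1 and 3 left out (adjusted p up to 0.063). Of 19 clock genes 5 rose (26.3%), among them NR1D1, the repressor REV-ERB alpha (1.90 ± 0.44), and PER1 (1.65 ± 0.43). CRY1 (-2.09 ± 0.57) and CLOCK (-1.53 ± 0.43) fell (10.5%). Over the alternatives 1 to 8 clock genes were higher. Of 34 genes of mRNA decay 1 rose, the AU-rich element binding protein gene ZFP36L1 (1.28 ± 0.21), and the decapping genes DCP1B (-1.05 ± 0.29) and EDC4 (-0.63 ± 0.14) fell. These shares, 2.94% higher and 5.88% lower, were below those of all tested genes (6.25% and 7.49%). Calls that did not survive the removal of single libraries were those for INHBE (with 1 library, adjusted p up to 0.066 over the alternatives), NR1D1 (4, up to 0.065), PER1 (4, up to 0.094), CRY1 (5, up to 0.11), CLOCK (5, up to 0.13), DCP1B (6, up to 0.12) and EDC4 (2, up to 0.062).

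Of the called genes whose mean log2 CPM reached 1 and whose libraries did not overlap, those that rose most were HSD17B7P2, UGT1A3, SLAMF9, KRTAP3-1, NOS1AP, CCN1, TENT5B, PLK3, SLC25A25, DUSP1, TPSAB1 and H2BC21, with log2 fold changes from 3.27 ± 0.66 to 2.29 ± 0.47. KRTAP3-1, a keratin-associated protein gene (chr17:41008521-41019324), had 3.65, 5.89 and 5 CPM without transfection and 32.9, 39.2 and 39 CPM with medium-cloaked mRNA (log2 fold change 2.93 ± 0.33, adjusted p = 0.00089). SLC25A25, a mitochondrial carrier for ATP-Mg and phosphate, went from 34.8, 33.8 and 46.5 to 188, 238 and 214 CPM. HSD17B7P2 is a pseudogene and TPSAB1 a tryptase with a near-identical relative, so their counts are uncertain, and UGT1A3 lost its call with no filter, with 1 of untransfected replicates 1, 2 and 3 or medium-cloaked replicates 1, 2 and 3 left out (adjusted p up to 0.12). On the other side stood SPAG1, SMC5, NFIX, HPS6, EDN1, G6PC1, POLR1B, FRAT1, PPP1R10, DHFR2, EXO5 and MOCS3, with log2 fold changes from -6.01 ± 0.47 to -2.48 ± 0.63. SPAG1, which encodes a factor for the assembly of axonemal dynein arms, had 889, 1205 and 2029 counts in untransfected and 14, 16 and 23 counts in medium-cloaked libraries (10.8, 13.8 and 23.6 CPM against 0.189, 0.219 and 0.338 CPM; adjusted p = 0.0001). It had the smallest p of all genes tested. NFIX, a factor of the nuclear factor I family, rested on untransfected replicates 1 and 2 (16.1, 14.4 and 1.87 CPM, against 1.01, 0.902 and 1.03 CPM), and UGT1A3, SMC5, HPS6 and POLR1B also differed 8-fold or more between replicates of some group in the series. Such replicate differences, with at least 100 counts in the higher library, were present within the untransfected or medium-cloaked group in 6 of the 2524 calls (0.238%) and in 357 of the tested genes (1.94%). The removal of 1 of the 6 libraries ended the call for MOCS3 (with each of 5 libraries, adjusted p up to 0.086 over the alternatives), NFIX (5, up to 0.098), TENT5B (3, up to 0.057), SMC5 (6, up to 0.14), HPS6 (2, up to 0.063), EDN1 (3, up to 0.063), POLR1B (6, up to 0.13) and FRAT1 (2, up to 0.057).

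The question whether medium cloaking differed from the other transfected groups was put by setting it against the mean of the non-cloaked, weak-cloaked and strong-cloaked groups. With edgeR's quasi-likelihood test 0 genes were called (0% of 18380), 1165 genes had an unadjusted p below 0.05, and DESeq2 called 18 (5 higher, 13 lower). Among the 8 genes of smallest p were SH2D5, SLC25A30, TBC1D10C, UBE2J2, SPAG1, VPS4A and FAM53C, and the 8 had adjusted p from 0.476 to 0.766. SH2D5, an adaptor protein gene, had 52, 478 and 185 counts in medium-cloaked libraries and 4, 1 and 4 in untransfected ones, an 8-fold or greater difference between medium-cloaked replicates. SLC25A30, a mitochondrial carrier gene, had 46.2 ± 1.95 CPM (SD, n = 3) in medium-cloaked cells, against 18.1 ± 5.06 in non-cloaked, 26.4 ± 3.24 in weak-cloaked and 31.6 ± 5.13 in strong-cloaked cells. UBE2J2, a ubiquitin-conjugating enzyme of the endoplasmic reticulum, was at 24.6 ± 0.971 CPM in medium-cloaked cells and at 45 ± 1.57, 35.4 ± 2.69 and 37.4 ± 8.42 CPM in the same order. For SPAG1 the weak-cloaked group alone made the contrast, with 11.5 ± 4.11 CPM, while the medium-cloaked (0.248 ± 0.0789), non-cloaked (0.267 ± 0.0774) and strong-cloaked (0.252 ± 0.117) groups were near 0. The median half-width of the unadjusted 95% interval of this log2 difference was 0.508 (0.622 for the comparison with untransfected cells). A call after adjustment over all tested genes takes a larger difference. SLC25A30, at a log2 difference of 0.90 ± 0.16, had an adjusted p of 0.723 in edgeR's test. The count of 0 calls therefore does not show that the groups were alike. Comparisons of each transfected group with untransfected cells share the untransfected libraries, and the values of the other groups therefore stand beside those above without a test of likeness.

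Side by side, G6PC1 was at 4.43 ± 0.712 CPM in medium-cloaked, 5.91 ± 2.21 in non-cloaked, 4.28 ± 1.45 in weak-cloaked and 5.38 ± 1.91 CPM in strong-cloaked cells, against 42.8 ± 3.54 in untransfected cells (mean ± SD, n = 3). HNF4A was at 132 ± 9.21, 182 ± 11.2, 163 ± 34.7 and 166 ± 39.8 CPM in the same order, against 253 ± 27.5. ISG15 was at 48.5 ± 3.89, 57.1 ± 9.49, 48.8 ± 10.3 and 62.5 ± 0.392 CPM, against 27.1 ± 1.28. None of these 3 genes was called for medium against the other transfected groups.

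Markers of other cell types were examined as 3 lists. Of 13 tested leukocyte markers 2 rose, TPSAB1 (2.40 ± 0.28) and CD68, a lysosomal glycoprotein that is not confined to macrophages (1.84 ± 0.45), and none fell. Their summed level was 1158 to 1577 CPM in untransfected and 1285 to 1334 CPM in medium-cloaked libraries, nearly all of it LYZ, while PTPRC and MS4A1, which define leukocytes and B cells, had 0 counts in all 6 libraries. Of 13 fibroblast and endothelial markers TIE1 rose (1.38 ± 0.19) and PDGFRB (-1.57 ± 0.33) and VWF (-1.81 ± 0.42) fell, with sums of 98.4 to 121 CPM and 139 to 153 CPM, and COL1A2 had 4 counts in all untransfected and 0 in all medium-cloaked libraries. Of 10 markers of other epithelia KRT17 rose (1.55 ± 0.32), the sums were 216 to 302 and 279 to 294 CPM, and SFTPC and UMOD were at 0. The part of such cells in the results above was not tested. With 1 library left out at a time, the call was lost for CD68 (with each of 3 libraries, adjusted p up to 0.07 over the alternatives), PDGFRB (1, up to 0.053) and VWF (3, up to 0.071).

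Calls were spread unevenly over transcript length. Annotated genes were divided into 4 bins of equal size. Among the shortest, up to 1965 bases, 373 were higher and 167 lower, and among the longest, from 4980 bases, 189 were higher and 398 lower. The median log2 fold change fell across the 4 bins from 0.14 through -0.02 and -0.10 to -0.17. Over 4 bins of GC content it ran from -0.19 in the lowest to 0.05 in the highest. The part of this relation in the results above was not tested beyond the offsets, and of RNA integrity only the stated minimum of 7.0 is known here. With offsets for length and GC 1843 genes were higher and 1522 lower. By type, 1045 of 15334 protein-coding genes were higher and 1238 lower (median -0.04), 49 and 102 of 1731 long noncoding RNAs (median -0.16), and 44 and 22 of 1035 pseudogenes (median 0.17). Zinc finger genes with ZNF symbols, a family of mostly repressive DNA-binding proteins, were higher in 6 and lower in 72 of 477 cases (median -0.49); this family was picked out after its values were seen.

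**Figure D4:**
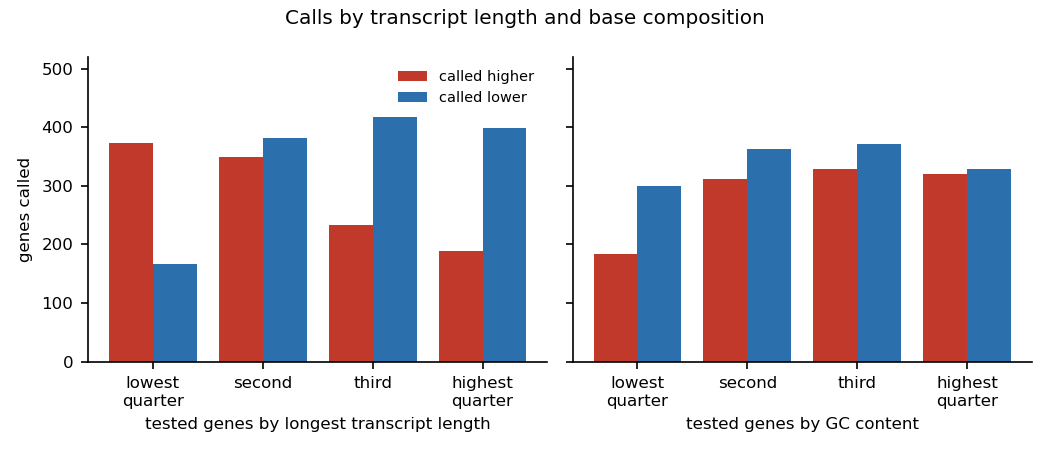
Number of genes called higher (red) and lower (blue) in medium-cloaked cells in 4 equal bins of the tested genes by length of the longest transcript (left) and by GC content (right). Calls shift from higher to lower along transcript length, from 373 against 167 in the shortest bin to 189 against 398 in the longest.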

How the data were processed

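The deposited file was a single matrix of raw counts, with genes by symbol in rows and the 15 libraries in columns. Libraries were strand-specific, poly(A)-selected and sequenced as 150 bp paired-end reads, per the labels' protocols. The submitters' processing notes name HISAT2, HTSeq, DESeq2 1.46.0, R 4.4.2 and GRCh38; the sources used here give no annotation release, strand setting or matrix filter, so overlapping genes and paralogs are uncertain. Groups came from the sample titles.

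From the counts, edgeR 4.0.16 (R 4.3.3, limma 3.58.1) was run as follows: filterByExpr at its defaults, TMM scaling and a robust quasi-likelihood fit with 1 mean per group over all 15 libraries. Medium-cloaked cells were set against untransfected cells and against the mean of the other transfected groups. A gene was called where its p, adjusted over all tested genes by Benjamini-Hochberg, was below 0.05. The biological coefficient of variation was 0.344, so replicate spread, not counting error, set the precision. Rows sharing a symbol (1330) were kept apart; GENCODE release 29 annotated 18226 tested genes (99.2%).

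The comparison and the 35 gene lists were chosen with earlier results of these data known. Genes were named by rule: the 12 called genes that rose most and the 12 that fell most (mean log2 CPM of at least 1, no overlap), up to 4 called members per list, key genes whether called or not, and the 8 of smallest p against the other transfected groups. A few genes the rule selects are left out of the text and the plots. Members of a list named without values were taken outside this rule, after their values were seen. Alternatives were DESeq2 1.42.0, other scalings and filters, a fit of the compared groups alone, the replicate number as a block, length and GC offsets, non-robust estimation and leaving out libraries. On simulated data for medium-cloaked against untransfected cells (17983 genes, changes placed only at a mean log2 CPM of at least 1), 3 of 67 genes changed 1.5-fold were recovered (4.48%), 20 of 67 changed 2-fold (29.9%) and 58 of 66 changed 4-fold (87.9%), with 3 false among 84 calls. The simulation changed 200 genes, far fewer than were called in the data, which made its adjusted threshold stricter.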

Additional observations from a re-analysis of the deposited data

How the results depend on the processing

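For medium-cloaked against untransfected cells, 2524 genes were called; RLE size factors gave 2536, total-count scaling 3036, a filter of 50 counts in 3 libraries 2731, no filter 2014, non-robust estimation 2494, and a fit of the compared groups alone 3590. DESeq2 called 3794 (1786 higher, 2008 lower), length and GC offsets 3365, and the fit without weak-cloaked replicate 1 3789. Leaving out 1 of the 6 compared libraries gave 785 (without medium-cloaked replicate 2) to 2089 (without untransfected replicate 3). Against the other transfected groups the count was 0 except for 18 with DESeq2 and 1 to 2 without single libraries: 1 without non-cloaked replicate 2, 1, 2 and 1 without medium-cloaked replicates 1, 2 and 3. With the replicate block, 2658 genes were called, and 3586 with the block and the length and GC offsets together. The same-numbered samples correlated at -0.027, -0.025 and -0.011 in their deviations from the group means, and none correlated best with its own number, so the numbers do not pair the samples. Over the named genes, 2179 of the values under alternatives kept their direction and side of the threshold, 440 fell short of it, 8 passed it, and 3 reversed: ALB (-0.063, adjusted p = 0.80) and AFP (-0.163, adjusted p = 0.35) with total-count scaling, and MT-ND4 without untransfected replicate 3 (values with 1 library left out ran from -5.52 to 0.29); the cause was not tested. At 3 libraries a group, changes of 1.5-fold were rarely recovered in simulation (3 of 67). Only 200 genes were changed there, so the adjusted threshold was stricter than with the 2524 calls in the data. The shares recovered therefore do not give the sensitivity of the comparison itself.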
